A study of Mus musculus with 15 samples.

Results

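Large and small colonies of cCFU-F (colony-forming fibroblasts of the adult mouse heart, grown in culture) were compared, both untreated and both at passage 5. The comparison was chosen by the labels of colony size, treatment and passage, and it used 6 of the 15 arrays of the study, 3 of large and 3 of small colonies. All cells came from C57BL/6 hearts, labelled as from male mice of 12 weeks, and were sorted as SCA1+PDGFRα+CD31- before culture. The remaining arrays held untreated large colonies at passage 15 and, at passages 5 and 15, small colonies given PDGF-AB (a platelet-derived growth factor dimer, 50 ng/ml). The sources used here do not give the culture or animal behind each array, so a p-value reflects array-to-array spread alone and that spread may be technical. Values are log2 levels after RMA (a summary of array probes per gene, normalised between arrays), a difference of 1 is 2-fold, and the sign is large minus small throughout.

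cCFU-F belong to the stroma of the heart and grow into colonies from cells plated at low density. Colonies of such cells differ in size, and the size a colony reaches is commonly used as a read-out of how long its founder can go on dividing. Cardiac fibroblasts arise largely from the epicardium. They make the collagen network of the heart and exchange signals such as FGF, Wnt, BMP and retinoic acid with neighbouring cells.

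The 6 arrays fell into their 2 labelled groups. Arrays of 1 type correlated across genes at a Pearson's r of 0.997 to 0.998, and arrays of different types at 0.975 to 0.977; genes are not independent replicates. The sex-linked genes went against the label. Xist, the RNA of the silenced X in female cells, ranged from 8.93 to 10.88 over the arrays compared, while Y-linked Eif2s3y ranged from 2.24 to 2.44 and Kdm5d from 2.94 to 3.34. Sry was the brightest Y-linked gene, between 6.31 and 6.56. Every array showed this, so no comparison without such arrays can be given. Xist was at 9.54, 8.93 and 9.32 in large and at 10.57, 10.88 and 10.39 in small colonies, lower in large by 1.35 ± 0.14 (SE; adjusted p = 8.4e-07), and none of the 9 measured Y-linked genes was called.

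Of 19938 genes, 7216 differed at an adjusted p under 0.05 (36.2%), 3627 of them higher in large colonies (18.2%) and 3589 lower (18%). The 3 large arrays all lay beyond the 3 small arrays in 8956 genes (44.9%). Most differences were small. The median size among called genes was 0.384, and 783 called genes (3.93%) differed at least 2-fold, 362 higher in large (1.82%) and 421 lower (2.11%). The balance turned with size. At 1.5-fold or more, 888 genes were higher in large and 1092 lower, at 8-fold or more 44 and 31, and at 16-fold or more 27 and 6. Small colonies thus held more genes with moderate excess and large colonies more genes with an excess above 16-fold.

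**Figure D1:**
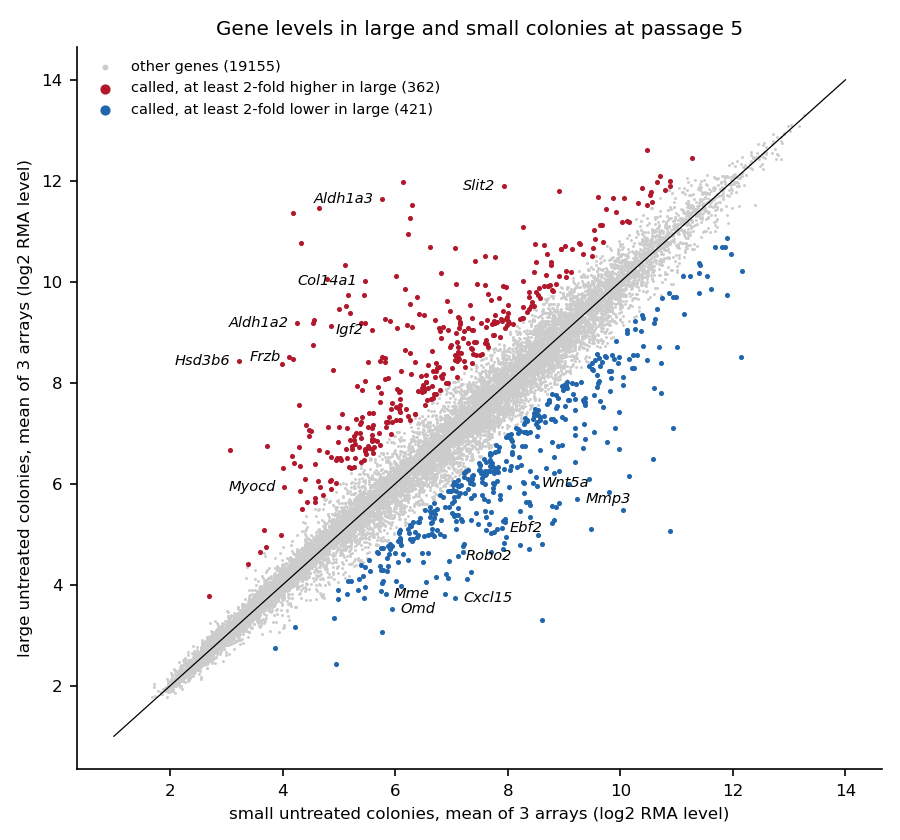
Mean log2 RMA level of each of 19938 genes in small (horizontal axis) and large (vertical axis) untreated colonies at passage 5, each a mean of 3 arrays; the line marks equal levels. The 362 red genes were called and at least 2-fold higher in large colonies, the 421 blue genes at least 2-fold lower, and the farthest points from the line lie above it.

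Of the genes behind the sort, Pdgfra did not mark the colony types. Pdgfra, the receptor used in the sort, was at 6.62, 6.45 and 6.67 in large and 6.63, 6.78 and 6.57 in small colonies, a difference of -0.08 ± 0.084 (adjusted p = 0.491), and the arrays of the types overlap. Ly6a, which encodes SCA1, was not named by a probe set used here. Pdgfrb averaged 11.83 and 11.77 (adjusted p = 0.451), and Vim, the mesenchymal intermediate filament, at 12.78 and 12.72 (adjusted p = 0.321). Pecam1, which encodes CD31, was near the lower quartile of the arrays in both types, at 4.45 and 4.31. In every other gene given below by array, the large arrays lay wholly above or wholly below the small ones. Other surface proteins of stromal cells did differ. Of 28 on a list, 7 were higher and 11 lower in large colonies. Cd24a, a glycoprotein of progenitor cells, was at 10.99, 11.13 and 11.12 in large and at 8.27 in each small array, while Cd34 (-1.31), Nt5e (-1.13, CD73) and Alcam (-0.73) were lower in large colonies.

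**Figure D2:**
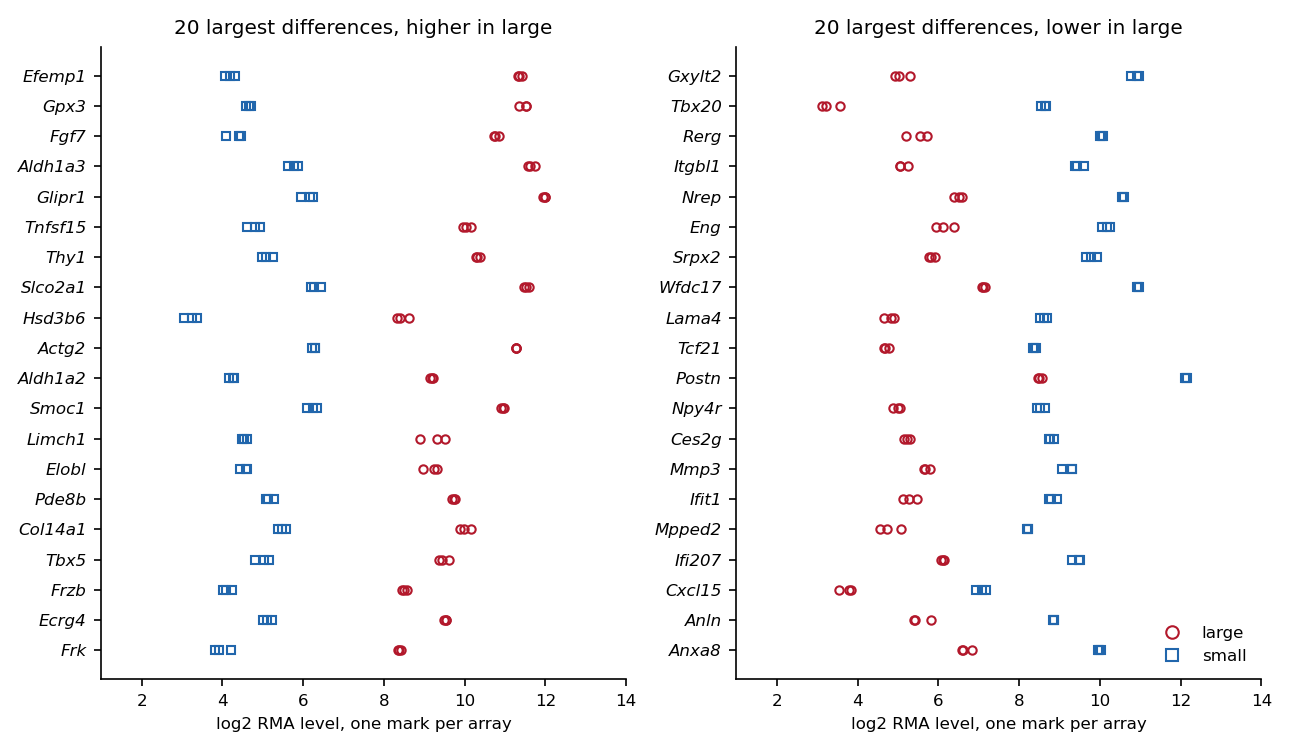
Log2 RMA level in each array for the 20 genes with the largest rises (left) and the 20 with the largest falls (right) in large against small untreated colonies at passage 5; circles are the 3 large and squares the 3 small arrays. The groups do not overlap in any of these genes, which the choice of genes required, and arrays of a group lie close together.

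The largest rises were in Efemp1, a matrix protein (7.17), Gpx3, a secreted peroxidase (6.82), and Fgf7, a growth factor (6.45), and the largest fall in Gxylt2, a xylosyltransferase (-5.81). Glipr1, a secreted protein of the CAP family, was 57.8-fold higher in large colonies (5.85), Tnfsf15, a cytokine of the TNF family, was higher by 5.26, and Actg2, the smooth muscle gamma actin, by 4.99. Pde8b, which degrades cyclic AMP, differed by 4.57 and the tyrosine kinase gene Frk by 4.39. Lower in large colonies was Rerg, a small GTPase of the RAS superfamily, at 5.19, 5.71 and 5.55 in large and 10.00, 10.06 and 10.07 in small colonies. Eng, the TGF-beta coreceptor endoglin and a common marker of cultured stromal cells, was at 6.39, 5.95 and 6.12 against 10.26, 10.18 and 10.05. Large arrays spread more than small ones in both genes, and the groups lay far apart. Itgbl1 (-4.37), Nrep (-4.07), Srpx2 (-3.95) and the matrix protein periostin, Postn (-3.63), were lower in large colonies as well.

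A gene may differ in degree or lie at opposite ends of the array. Here a gene counted as at opposite ends where it was below the lower quartile of probe sets (4.08 to 4.16 in these arrays) in all arrays of 1 type and above the median (5.59 to 5.64) in all of the other. Only 10 genes met this, 5 high in large and 5 high in small colonies. Hsd3b6, a steroid dehydrogenase, was at 8.61, 8.39 and 8.32 in large and 3.24, 3.05 and 3.38 in small colonies, 37.2-fold apart. Cd59a, which protects cells from complement, averaged 6.66 and 3.07, and the glutathione transferase Gstm6 6.75 and 3.72. Gria4, a glutamate receptor subunit, and Myocd, the smooth muscle coactivator of serum response factor, completed the set, higher in large colonies by 2.32 and 1.90. In the other direction, Tbx20 (a T-box factor of the heart), Cxcl15 (a chemokine), Ifi203 (an interferon-inducible DNA sensor), Omd (the proteoglycan osteomodulin) and Mme (the peptidase neprilysin) were high in small colonies. Cxcl15 was at 3.55, 3.85 and 3.80 in large and 7.08, 7.19 and 6.94 in small colonies. Omd averaged 3.53 and 5.94, and Mme 3.82 and 5.83. Folds that rest on a level under the quartile depend on background, and of the 783 genes 27 were that dim in large and 13 in small colonies.

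Gene groups were taken from lists, and each count can be read against the 18.2% higher and 18% lower over all genes. The plot of calls by list places imprinted growth genes at one end and mitosis genes at the other.

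**Figure D3:**
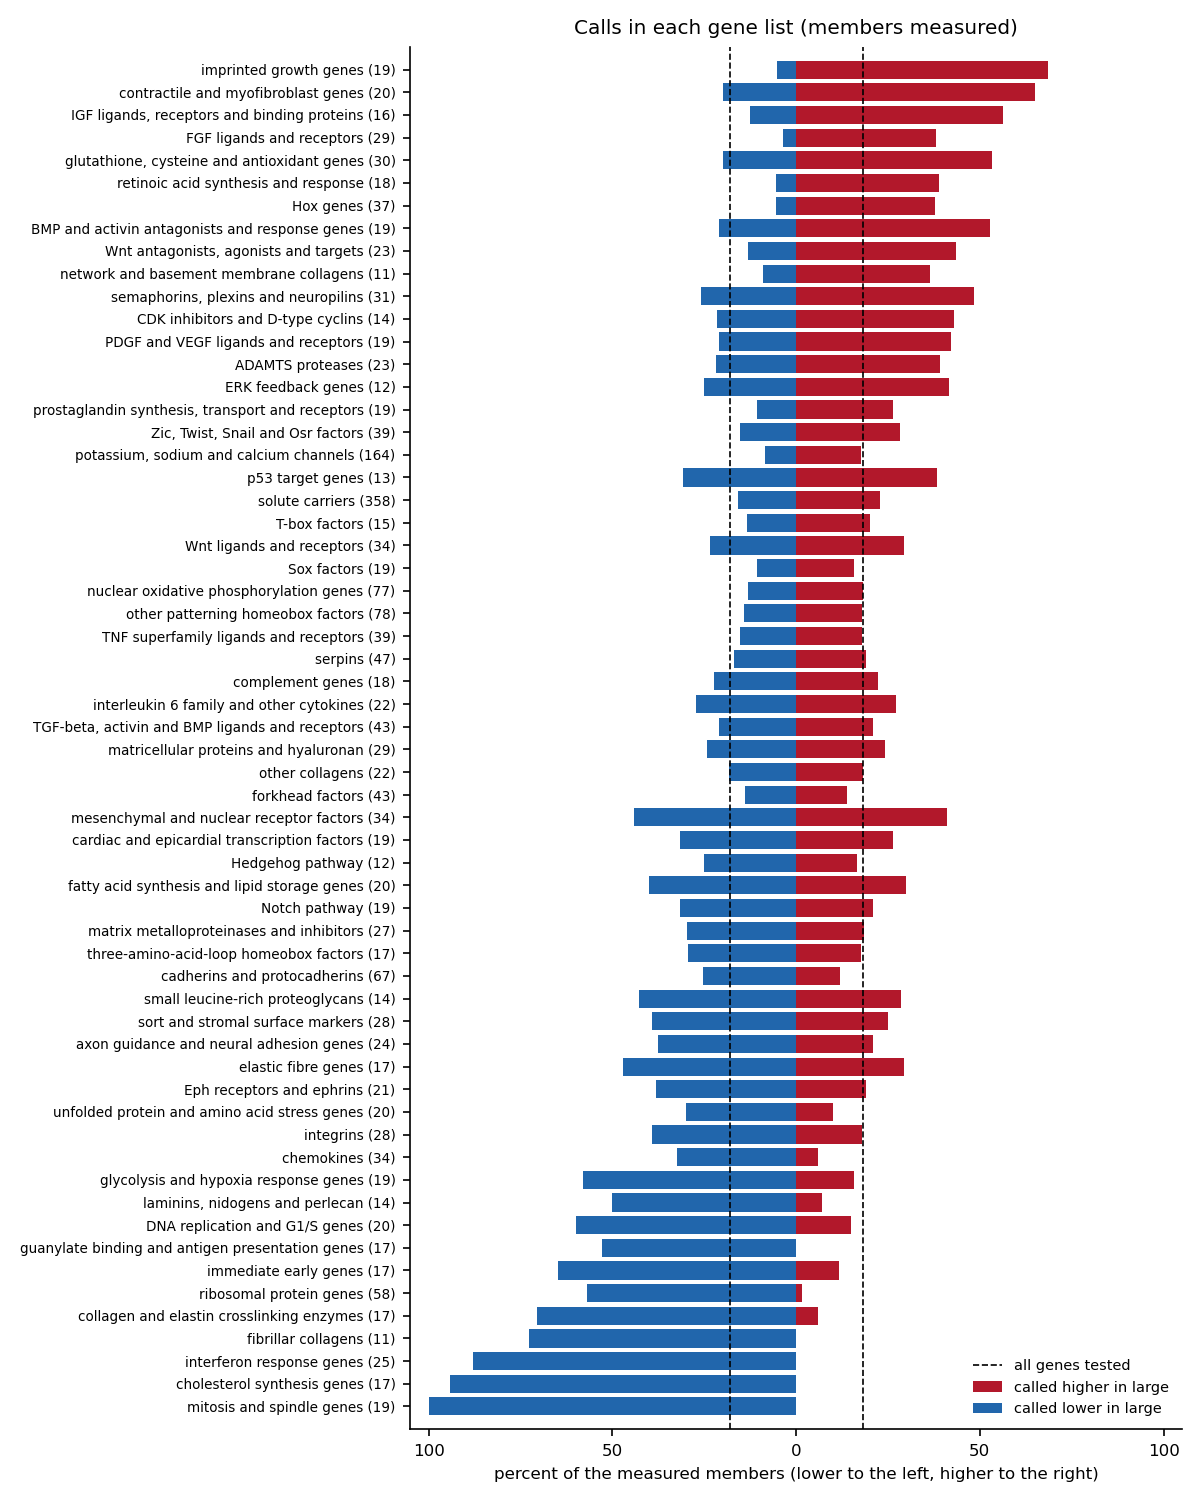
Percent of the measured members of each gene list called higher (red, right) or lower (blue, left) in large than in small untreated colonies at passage 5, with the number measured in brackets; dashed lines mark all genes tested. Imprinted growth genes were called higher in 13 of 19 cases, and mitosis and spindle genes lower in 19 of 19.

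Enzymes that make retinoic acid were among the largest differences. Retinoic acid is made from retinaldehyde by enzymes of the Aldh1a family, acts through nuclear receptors and is cleared by Cyp26 enzymes. Aldh1a3 was at 11.74, 11.62 and 11.56 in large and 5.62, 5.78 and 5.87 in small colonies, 59.1-fold higher (5.89 ± 0.089, adjusted p = 2.2e-17). Aldh1a2, the enzyme of the embryonic epicardium, was at 9.21, 9.14 and 9.20 against 4.17, 4.27 and 4.30, 30.6-fold higher. The third enzyme of the family stood at the same level in both types. Aldh1a1 averaged 10.55 and 10.48 (0.07 ± 0.058, adjusted p = 0.399). The clearing enzyme Cyp26b1 was 12.7-fold higher in large colonies (9.85 against 6.17), and Rarb, a receptor that is itself a target of retinoic acid, 1.75-fold (5.64 against 4.83). Of the 18 genes of retinoid metabolism and response that were measured, 7 were higher in large colonies and 1 lower (Rarg, -0.20), with a median of 0.078 against 0.031 over all genes. Of the 10 members at or above the median level, 4 were higher and 2 lower when dimmer genes were left out of the fit. The receptors Rara, Rxra and Rxrb were not called.

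Prostaglandin genes followed a similar division between a few members and the rest. Slco2a1, the transporter that takes prostaglandins into cells, was at 11.51, 11.59 and 11.47 in large and 6.44, 6.19 and 6.27 in small colonies (5.22 ± 0.072). Ptges (prostaglandin E synthase, 2.02), Ptgs2 (the inducible cyclooxygenase COX-2, 1.49) and Tbxa2r (the thromboxane receptor, 1.66) were also higher in large colonies. Ptger3, a prostaglandin E receptor, was lower (-0.61). In all, 5 of 19 members were higher and 2 lower, and Ptgds, Hpgd and the receptors Ptger1, Ptger2 and Ptger4 were not called.

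Wnt genes differed in kind more than in number. Of 34 ligands and receptors, 10 were higher and 8 lower in large colonies. Wnt5a, a ligand that mostly acts without beta-catenin, was at 6.14, 5.91 and 5.97 in large and 8.46, 8.39 and 8.49 in small colonies (-2.44 ± 0.08), whereas Wnt4 was higher in large (1.34 ± 0.087). Receptors of Wnt5a parted too. Ror1 was 5.11-fold higher in large colonies (9.94 against 7.59) and Ror2 2.26-fold lower (6.65 against 7.82), while the coreceptors Lrp5 (-1.14) and Lrp6 (-0.28) were lower and the frizzled receptor Fzd7 (1.01) was higher. Of 23 antagonists, agonists and targets 10 were higher and 3 lower. The antagonists Frzb and Sfrp1 and the agonist Rspo3 were higher in large colonies. Frzb was at 8.58, 8.46 and 8.51 against 4.08, 4.24 and 4.01, Sfrp1 at 11.80 against 8.91, and Rspo3 at 10.17 against 6.82. Sfrp2, of the same antagonist family, was lower in large colonies, at 4.80, 5.09 and 5.40 against 7.04, 7.22 and 6.98, as were the inhibitor Apcdd1 (-2.10) and the agonist Rspo2 (-0.94). Of the genes commonly read as targets of beta-catenin, Nkd1 (1.28) and Nkd2 (0.81) were higher, as were the R-spondin receptors Lgr4 (0.97) and Lgr6 (0.31), and Axin2, Lef1 and Notum were not called.

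Guidance genes went both ways. Slit2 and Slit3 encode secreted ligands of the Robo receptors. Slit2 was at 11.98, 11.84 and 11.89 in large and 7.94, 8.03 and 7.83 in small colonies, 15.7-fold higher, and Slit3 averaged 11.66 and 9.87. Robo2 was 5.82-fold lower in large colonies, at 4.51, 4.59 and 4.59 against 7.01, 7.28 and 7.03, and Robo1 was lower by only 0.26 ± 0.065. The semaphorin coreceptors went opposite ways. Nrp1 was higher in large colonies (1.71 ± 0.058) and Nrp2 lower (-1.64 ± 0.079), with Sema3d (2.68) and Sema3c (1.18) higher and Sema5a (-1.81), the receptor Plxnd1 (-1.44) and Sema3a (-0.88) lower. Over 31 semaphorins, plexins and neuropilins, 15 were higher and 8 lower. Epha4, an ephrin receptor, was higher in large colonies (9.54 against 7.33), while Ephb6 (-1.39), Efna5 (-1.37) and Efnb2 (-1.17) were lower. The adhesion molecules Ncam1 (-1.13) and Flrt2 (-1.51) were lower in large colonies.

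Genes of the FGF and IGF systems that were called lay mostly on the side of large colonies. Of 29 FGF ligands and receptors 11 were higher and 1 lower, with 6 higher and 0 lower in a fit without the dimmer genes (below the median level). Fgf2 was at 9.95, 9.90 and 10.01 in large and 7.52, 7.47 and 7.40 in small colonies (2.49 ± 0.071), and Fgf10 at 6.67 against 4.64. The receptor Fgfr1 was not called. Of 16 genes of the IGF system 9 were higher and 2 lower. Igfbp3, a carrier that controls access of IGF to its receptor, was 17-fold higher in large colonies, at 10.13, 10.12 and 10.08 against 6.15, 5.95 and 5.96. Pappa, a protease that frees IGF from its carriers, was higher (1.46 ± 0.098), its paralog Pappa2 lower (-0.59), and the RNA-binding protein gene Igf2bp1 lower (-1.55 ± 0.069). Of 19 PDGF, VEGF and related ligands and receptors 8 were higher and 4 lower. Placental growth factor Pgf (2.44) and Pdgfd (1.65) were higher in large colonies, while Kitl, the ligand of KIT (-2.09), and Pdgfc (-1.57) were lower.

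Of the lists plotted, imprinted genes of growth control had the highest share of members called higher. Imprinted genes are read from the copy of a single parent, and many of them act on growth. The list was not divided by parental copy, and imprinting in these cells was not tested. It includes Dcn (1.17), which is also counted among the proteoglycans below. Igf2, the best known imprinted growth gene, was at 9.03, 9.18 and 8.93 in large and 5.61, 5.50 and 5.65 in small colonies, 11-fold higher (3.46 ± 0.078, adjusted p = 2.7e-15). Mest averaged 6.95 and 4.47, Zim1 6.42 and 4.20, Peg3 9.63 and 7.71, and Peg10 10.19 and 8.46. Of 19 measured members 13 were higher and 1 was lower in large colonies, with a median of 0.60. The lower member was Meg3, a noncoding RNA, at 9.51, 9.60 and 9.38 against 10.37, 10.43 and 10.19 (-0.83 ± 0.084). Dlk1 (0.07), Plagl1 (0.06) and Cdkn1c (0.14, adjusted p = 0.248), imprinted as well, were not called.

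Of 19 BMP and activin antagonists and response genes, 10 were higher and 4 lower in large colonies. Id1 to Id4 encode inhibitors of helix-loop-helix factors, and Smad6 and Smad7 encode feedback inhibitors of the pathway. Id2 was at 10.34, 10.34 and 10.31 in large and 8.76, 8.75 and 8.78 in small colonies, and Id4 at 7.10 against 5.59. Id1 (0.81), Id3 (0.54), Smad6 (0.92) and Smad7 (1.01) were higher as well. Of 43 ligands and receptors of the TGF-beta, activin and BMP family 9 were higher and 9 lower. Bmp6 (2.05 ± 0.068), Bmpr1b (1.56 ± 0.092) and Tgfb3 (0.84) were higher, Eng (-4.01), Tgfbr3 (-0.85), Tgfbr2 (-0.79), Tgfb1 (-0.79) and Gdf6 (-0.79) were lower, and Bmp4 was not called (0.17, adjusted p = 0.0794). The antagonist Grem1 was lower by 0.32 ± 0.049 from a high level, 12.44 against 12.76. The Notch pathway gave 4 higher and 6 lower of 19, with the target Hey2 (1.81), the ligand Jag1 (0.91) and the targets Hey1 (0.72) and Hes1 (0.63) higher and the receptors Notch3 (-1.03), Notch4 (-0.43) and Notch2 (-0.35) lower.

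Some families of transcription factors had members on opposite sides, while the Hox genes, which encode position along the body, were called mostly one way. Of 37 Hox genes 14 were higher in large colonies and 2 lower, among them Hoxb9 (3.30) and Hoxa5 (1.46). Of the heart factors, Tbx5 was higher (4.47) and Tbx20 (-5.31), Tcf21 (-3.67) and Gata4 (-2.62) were lower. The early B-cell factors, which also act in fat and bone stroma, were a family with members on both sides. Ebf3 was at 8.14, 8.20 and 7.86 in large and 5.74, 5.80 and 5.90 in small colonies (2.26 ± 0.085), Ebf1 was higher by 1.04 ± 0.062, and Ebf2 was at 5.03, 5.09 and 5.26 against 7.92, 8.01 and 7.74 (-2.76 ± 0.085). Sox11 (2.04) and Sox12 (-1.68) also parted, as did the orphan receptors Nr2f2 (9.11 against 7.61) and Nr2f1 (-0.52). Higher in large colonies were also the chromatin organiser Satb1 (7.92 against 5.70), the fat regulator Pparg (8.80 against 7.10) and the homeobox gene Emx2 (8.45 against 7.06). Lower in large colonies were Lhx8 (5.10 against 7.81), Alx1 (5.65 against 7.64), Runx3 (6.29 against 7.94), Etv1 (-1.90) and Mkx, a regulator of tendon (6.25 against 8.40). Targets of fat differentiation did not accompany Pparg. Adipoq, Fabp4 and Plin1 were not called, and Cebpa was lower (-0.46).

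Matrix classes with most members called 1 way stood beside classes that were mixed. Fibrillar collagens, which form the load-bearing fibres, had 8 of 11 members lower in large colonies and 0 higher, with a median of -0.72. Col3a1 was at 7.43, 7.45 and 7.38 in large and 9.99, 10.10 and 9.81 in small colonies, 5.84-fold lower, and Col1a1 was 3.86-fold lower (10.21 against 12.16). Their processing enzymes went with them, 12 of 17 lower and 1 higher (P3h2, 0.42), among them the procollagen enhancer Pcolce2 (-2.50) and the crosslinking oxidase Loxl1 (-2.34). Col6a3 (-2.52), of the microfibrillar collagen, was lower too. Of 14 laminins, nidogens and perlecan, 7 were lower, among them Lama4 (-3.81) and Nid2 (-1.98), and 1 higher (Lamb2, 0.31). The network and basement membrane collagens had 4 of 11 higher, among them Col4a6 (0.87), Col4a2 (0.65) and Col4a1 (0.24), and 1 lower (Col8a1, -1.13). Col14a1, a collagen that binds the surface of fibrils, was the reverse, at 10.17, 9.88 and 9.99 in large and 5.47, 5.38 and 5.57 in small colonies (4.54 ± 0.072), and Tnxb, tenascin X, was higher by 3.05 ± 0.11. The small leucine-rich proteoglycans, which coat collagen fibrils, were mixed, with 4 of 14 higher and 6 lower, as were elastic fibre genes, with 5 of 17 higher and 8 lower. Prelp (2.14) and Dcn (1.17) were higher in large colonies, while Ogn (-2.71), Aspn (-2.56) and Omd (-2.41) were lower and Bgn was not called. Has2, which makes hyaluronan, and its partner proteoglycan Vcan were lower in large colonies, at 6.32 against 8.68 and 6.54 against 8.82. Of 27 matrix metalloproteinases and inhibitors 8 were lower, among them Mmp3 (-3.53), Mmp23 (-1.98), Mmp10 (-1.89) and Mmp2 (-1.62), and 5 higher, among them Mmp28 (0.94) and the inhibitor Reck (0.56), while Timp1, Timp2 and Timp3 were not called. The ADAMTS proteases had 9 of 23 higher, among them Adamts5 (0.96), and 5 lower.

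Of 25 genes of the interferon response, 22 were lower in large colonies and 0 higher, with a median of -1.18 (12 of 13 lower in a fit without dimmer genes). Ifit1, a sensor of foreign RNA, was at 5.47, 5.28 and 5.13 in large and 8.94, 8.73 and 8.79 in small colonies, and Rtp4 at 4.03, 4.15 and 4.19 against 7.26, 7.27 and 7.30. The core of the element bound by interferon-activated factors, GAAA followed by any 2 bases and GAAA on either strand, lay within 250 bases before the start of 7 of the 17 list genes with a RefSeq promoter (41.2%), against 3.4% of the 15562 genes with one. Among genes at least 2-fold lower in large colonies this core was in 5.71% of promoters, and among those at least 2-fold higher in 5.4%. A match is a description of letters and not a bound site. The windows of Ifit1 (chr19:34640765-34640833, plus strand) and Ifit3 (chr19:34583353-34583436, plus strand) are shown, with the matches in capitals, from RefSeq on GRCm38.p6. Of the list, 4 promoters hold 2 matches each, and Ifit1 and Ifit3 are shown because they differed most of the 4. The other promoters with 2 matches are those of Bst2 (-1.18) and Oas1a, which was not called (-0.08, adjusted p = 0.708).
Ifit1: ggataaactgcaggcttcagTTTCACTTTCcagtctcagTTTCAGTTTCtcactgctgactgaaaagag
Ifit3: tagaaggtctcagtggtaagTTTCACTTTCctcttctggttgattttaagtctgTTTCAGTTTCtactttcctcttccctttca
Counted from the start site, the matches begin at -104 and -85 in Ifit1 and at -156 and -122 in Ifit3, which averaged 8.12 in large and 10.05 in small colonies.

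Chemokines were on the same side, 11 of 34 lower and 2 higher in large colonies, although only 6 of the 34 were at or above the median level, and 4 of these were lower when the rest were left out. Ccl9 was at 4.83, 4.61 and 4.69 in large and 7.87, 7.98 and 7.87 in small colonies. Ccl8 (-2.68), Ccl17 (-2.57) and Cxcl12 (-1.04), the retention factor of stem cell niches, were lower as well. Of 22 cytokines and receptors of the interleukin 6 and other families, 6 were higher and 6 lower. Il6 was higher in large colonies, at 9.33, 9.22 and 9.08 against 7.07, 7.19 and 7.18, and so were Il33 (1.07), Il1rn (1.20) and Csf1 (0.88), while Lifr (-1.35), Lif (-0.78), Ctf1 (-0.75), Il15 (-0.59) and Osmr (-0.55) were lower. Of 18 complement genes, 4 were higher and 4 lower in large colonies. The complement inhibitor Serping1 was at 8.74 in large and 4.53 in small colonies, and Cd59a, C3ar1 and C2 (0.45) were higher as well. The complement protease genes C1s1 (-0.82) and C1ra (-0.70) were lower, as were C4b and Cd55 (-0.81).

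All 19 measured mitosis and spindle genes were lower in large colonies, with a median of -1.21. Ccnb2, a mitotic cyclin, was at 6.34, 6.39 and 6.35 in large and 8.03, 8.08 and 8.08 in small colonies, and Mki67, the proliferation antigen, at 5.37, 5.43 and 5.43 against 6.71 in each small array. DNA replication genes were lower in 12 of 20 cases and higher in 3, with a median of -0.42. The 3 were Rrm1 (0.85) and Rrm2 (0.61), the subunits of ribonucleotide reductase, and Ccne1 (0.20). Of 14 genes on a list of cell cycle inhibitors and D-type cyclins, 6 were higher and 3 lower. Cdkn2a, an inhibitor of the cell cycle, was higher in large colonies by 0.33 (8.06 against 7.73). Among the other inhibitors Cdkn2b (1.08) was higher, and Cdkn2c (-1.13) and Cdkn1b (-0.67) were lower. The cell cycle homology region, TTTGAA on either strand, was in 6 of 15 promoters of the mitosis list (40%), against 15.7% of all, and the CCAAT box, CCAAT on either strand, in 13 of 15 (86.7%) against 38.9%. Among genes at least 2-fold lower in large colonies CCAAT was in 37.5% of promoters, and among those at least 2-fold higher in 37.8%. For TTTGAA the shares were 16.2% and 15.1%. The windows of Ccnb2 (chr9:70421555-70421741, minus strand) and Mki67 (chr7:135716452-135716587, minus strand) hold both motifs, in capitals.
Ccnb2: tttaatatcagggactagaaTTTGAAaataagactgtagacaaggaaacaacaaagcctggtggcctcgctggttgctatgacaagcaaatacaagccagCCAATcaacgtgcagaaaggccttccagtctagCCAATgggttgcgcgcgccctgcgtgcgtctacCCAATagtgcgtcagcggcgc
Mki67: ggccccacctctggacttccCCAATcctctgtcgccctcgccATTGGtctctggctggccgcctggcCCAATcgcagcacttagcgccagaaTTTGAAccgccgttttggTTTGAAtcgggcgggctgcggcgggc
Ccnb2 holds 4 matches and Mki67 holds 5.

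Of 17 cholesterol synthesis genes 16 were lower in large colonies, with a median of -0.60. Srebf2, the factor that drives the pathway, was at 8.56, 8.46 and 8.50 in large and 9.81, 9.81 and 9.63 in small colonies. The CCAAT box was in 14 of 14 promoters of the list, and the sterol regulatory element TCACNCCAC in 1, that of Hmgcs1 (-0.64 ± 0.067), an early enzyme of the pathway, against 1.2% of all promoters. Its window (chr13:119690101-119690330, plus strand) is shown for both motifs, in capitals.
Hmgcs1: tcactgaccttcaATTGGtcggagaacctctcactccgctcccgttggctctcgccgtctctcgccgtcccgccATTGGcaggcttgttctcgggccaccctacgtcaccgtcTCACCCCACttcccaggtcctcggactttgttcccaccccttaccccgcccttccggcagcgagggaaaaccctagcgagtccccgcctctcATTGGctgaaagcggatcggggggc
No match in a window says only that these letters are not there.

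Metabolic and stress genes divided by pathway. Of 30 glutathione, cysteine and antioxidant genes 16 were higher and 6 lower in large colonies. Cdo1, which degrades cysteine, was at 9.10, 9.12 and 9.12 in large and 4.68, 4.86 and 5.01 in small colonies, while Cth, which makes cysteine (-1.60), and Slc7a11, which imports cystine (-1.23), were lower. Mgst1 (1.83), Nqo1 (1.47) and Gsta4 (1.24) were higher and the endoplasmic reticulum peroxidase Gpx7 was lower (-2.22). Glycolysis and hypoxia genes were lower in 11 of 19 cases and higher in 3, with Egln3 (-1.89), Bnip3 (-1.43), Pfkl (-1.14) and Ldha (-0.68) lower and Vegfa (0.54) higher. Immediate early genes were lower in 11 of 17 cases, among them Fosl1 (-1.47 ± 0.088), Myc (8.42 against 9.42) and Jun (-0.70), while Klf4 was higher (0.81). Ribosomal protein genes were lower in 33 of 58 cases and higher in 1, and Rpl30 differed most (-0.68). These genes have many near-identical copies in the genome, so their probes may read several.

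Markers of other cell types mostly lay below 6.02, the median over all genes of the mean level. Their calls can be read against 36.2% of all genes called, 18.2% higher and 18% lower. Of 12 endothelial markers 3 were higher and 1 lower, and 10 averaged under 6, with a list mean of 5.25 to 5.32 in large and 5.03 to 5.10 in small arrays. Flt1, a VEGF receptor, was the exception in level (9.03 against 8.15). Leukocyte markers gave 1 higher and 2 lower of 12, with list means of 5.08 to 5.18 and 5.25 to 5.32, and Ptprc, which encodes CD45, was at 3.94 and 3.89. Cd14 (-1.86) and Lyz2 (-0.68) were lower in large colonies, and Csf1r (0.31) was higher. Of 13 cardiomyocyte markers 2 were higher and 1 lower, with list means of 5.16 to 5.28 in large and 5.14 to 5.24 in small arrays. Tnnt2, a cardiac troponin, was the lower member, at 7.98, 8.00 and 7.99 in large and 9.62, 9.62 and 9.58 in small colonies. Of the 2 higher members, 1 differed at least 2-fold (1.03), and Myh6, Tnni3 and Ttn were not called. Of 12 epicardial and mesothelial markers, Aldh1a2, Upk1b (0.54), Bnc1 (0.40) and Krt18 (0.23) were higher and Lrrn4 (-0.61) lower, and Wt1, Msln and Upk3b were not called. Of 11 pericyte markers 4 were higher, Rgs5 most (2.92), and 3 lower, Notch3 most (list means of at most 5.82 in large and 5.63 in small arrays), and of 16 fat, bone and cartilage markers 2 and 2. Of 8 Schwann cell and neural crest markers limma called 0, and 1 had an unadjusted p under 0.05. In such samples fewer cells of a type and less RNA per cell cannot be told apart, and the part of other cells in the results above was not tested. Markers of resident cardiac fibroblasts were brighter, with list means of 7.96 to 8.02 in large and 8.44 to 8.47 in small arrays. Of 17, 5 were higher and 7 lower in large colonies. Tcf21 (-3.67), Dpep1 (-2.80), Col1a1 (-1.95), Col1a2 (-1.75) and Dpt (-1.17) were lower, and Mfap5 (1.70), Dcn (1.17), Lum (0.44) and Ddr2 (0.32) higher.

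MicroRNA genes were read by 297 probe sets, and 9 were higher and 38 lower in large colonies (15.8% called, against 36.2% of all genes). A probe set here reads RNA that holds the hairpin, not the mature product. The mature sequences of those discussed are given 5′ to 3′ from RefSeq on GRCm38.p6, with the seed (bases 2 to 8, which pairs with targets) in capitals.
miR-218-5p: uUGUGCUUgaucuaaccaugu
miR-99a-5p: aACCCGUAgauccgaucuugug
miR-100-5p: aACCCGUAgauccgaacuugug
miR-15a-5p: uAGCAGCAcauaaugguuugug
miR-16-5p: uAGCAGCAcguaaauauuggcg
let-7c-5p: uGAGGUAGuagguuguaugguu
miR-99a-5p and miR-100-5p share a seed, as do miR-15a-5p and miR-16-5p. The largest rise was in Mir218-1, at 7.24, 6.70 and 7.27 in large and 4.23, 4.64 and 4.53 in small colonies (2.60 ± 0.17). It lies within the span of Slit2 on chromosome 5, and its copy Mir218-2, within Slit3 on chromosome 11, was higher too (0.61 ± 0.095). Both thus went with the gene around them. Not every called microRNA gene did so. Atp5b was higher (0.20) around a microRNA gene that was lower (-0.25). Mir99a (-1.52 ± 0.17) and Mirlet7c-1 (-1.36 ± 0.18), neighbours on chromosome 16, were lower with the noncoding RNA Mir99ahg (-1.16 ± 0.13). Mir100 (-0.80) and Mir125b-1 (-0.62), on chromosome 9, lay in Mir100hg, which was lower by 1.07 ± 0.079. Mir15a was lower in large colonies (5.28 against 7.34, -2.06 ± 0.098), and Mir16-1 by 0.45 ± 0.091, while Dleu2, the gene that spans both, was dim and not called (1.86 against 2.09, adjusted p = 0.156). Between Meg3 and the end of Mirg on chromosome 12, 40 microRNA genes were measured, and 12 were lower and 0 higher, with a median of -0.15 against -0.01 for the other 257. Mir380 (-0.85 ± 0.17) was the lowest of them. The median difference of all chromosome 12 genes also lay below that of all placed genes (-0.123, dim genes included). The part of this in the microRNA genes was not tested.

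The genes of some chromosomes had a median difference away from that of all genes. The shift is the median difference of the genes of a chromosome at or above the median level minus that of all such genes. Chromosome 15 stood lowest, at -0.320, and 68.5% of its 410 genes were called lower in large colonies and 8.5% higher. Each of its 7 stretches of 10 megabases with at least 20 genes was below 0, between -0.385 and -0.183. Chromosomes 12 (-0.214), 16 (-0.197) and 14 (-0.164) were also shifted down, with every such stretch below 0, as was chromosome 9 (-0.161), with stretches between -0.336 and 0.062. Chromosome 13 stood highest, at 0.237, with 53.7% of 374 genes higher and 9.1% lower, followed by chromosome 17 (0.204). Their stretches lay between 0.004 and 0.405 and between 0.167 and 0.335. Chromosomes 6 (0.116), 19 (0.111) and 10 (0.102) were shifted up only in parts, with stretches from -0.055 to 0.395, from 0.005 to 0.494 and from -0.152 to 0.218. Single arrays gave nearly the same values. Taking each array against the mean of the other type, chromosome 15 lay between -0.331 and -0.308 and chromosome 13 between 0.223 and 0.268. Several genes named above lie on shifted chromosomes, and the part of the shift in each was not tested. In a step chosen after the data were seen, the median difference of each chromosome was removed. That median came from genes at or above the median level but was taken from dimmer genes too. Shifts were smaller with dim genes included, so it may overcorrect those. Then 4501 genes were called higher and 3491 lower, and 83.4% of the calls above were kept. At least 2-fold higher were 363 genes and lower 389, and 708 of the 783 genes were kept.

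**Figure D4:**
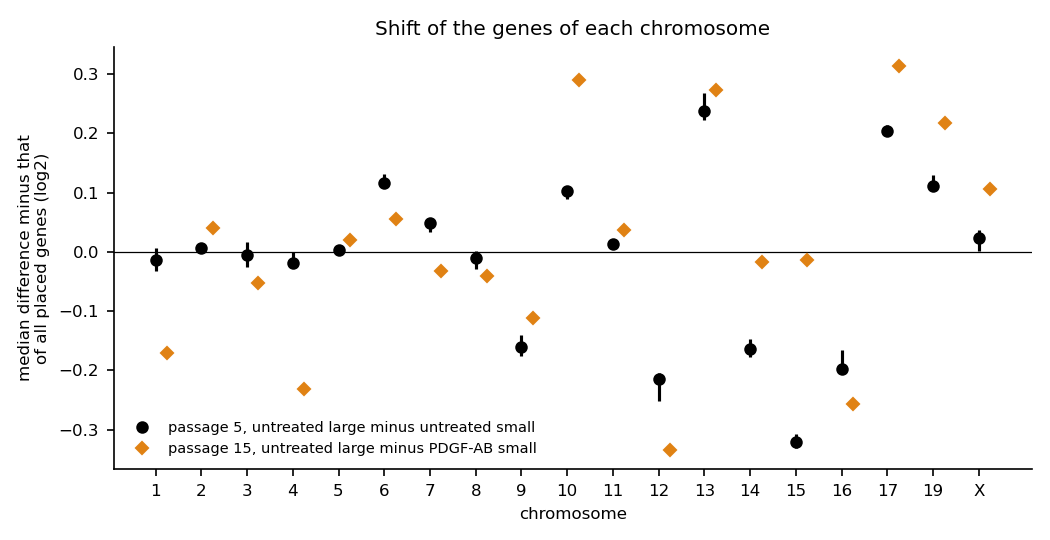
Median log2 difference of the genes of each chromosome minus that of all placed genes, for genes at or above the median level; black points are untreated large minus untreated small colonies at passage 5, with the range over the 6 arrays taken singly as a bar, and diamonds are untreated large minus PDGF-AB treated small colonies at passage 15. Chromosome 15 lies at -0.320 at passage 5 and at -0.014 at passage 15, while chromosome 13 lies above 0 at both. Chromosome 18 is not shown.

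The passage 5 differences were then looked up in 6 arrays that share none with them, untreated large and PDGF-AB treated small colonies at passage 15. Colony size and PDGF-AB cannot be told apart there, since no untreated small colonies of that passage were used here. In that comparison 53.4% of all genes were called, 24.2% higher in large and 29.2% lower. Of the 783 genes with at least 2-fold differences at passage 5, 547 (69.9%) were called in the same direction, 108 (13.8%) in the opposite direction and 128 in neither. The sides differed. Of the 362 genes higher in large colonies 314 (86.7%) were called again in that direction and 17 in the other, and their median at passage 15 was 1.18. Of the 421 genes lower in large colonies 233 (55.3%) were called again and 91 reversed, with a median of -0.29 at passage 15. The test of the difference between passages was not run. Differences of at least 2-fold in the same direction in both were held by 296 genes, 37.8% of those at passage 5 and 32% of the 925 at passage 15.

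**Figure D5:**
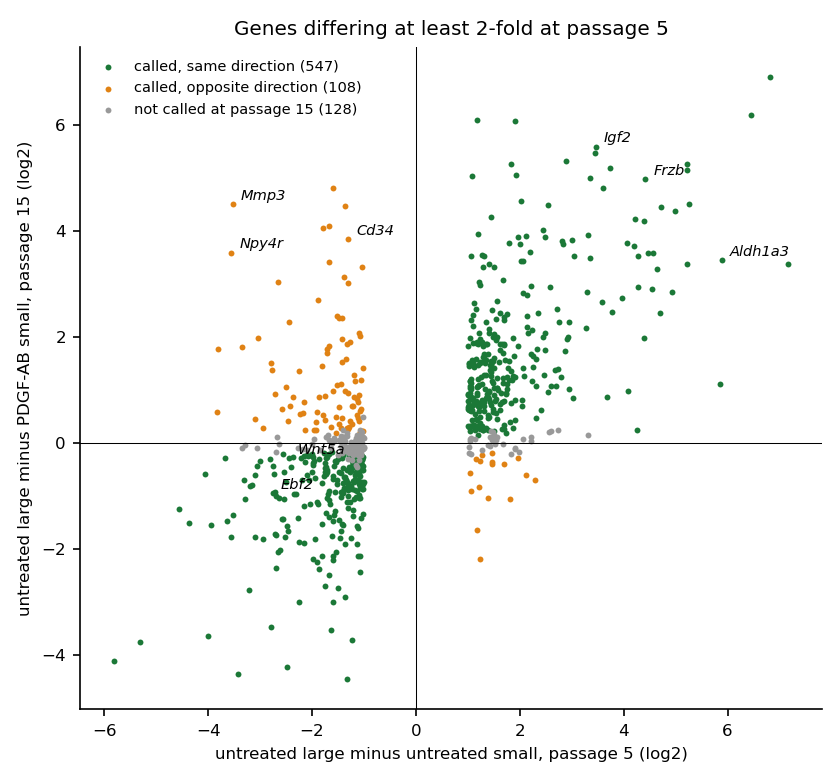
Log2 difference at passage 5 (horizontal axis) and at passage 15 (vertical axis) for the 783 genes that differed at least 2-fold at passage 5; green genes (547) were called in the same direction at passage 15, orange genes (108) in the opposite direction and grey genes (128) were not called. Most genes on the right lie above 0, while those on the left lie on both sides of it.

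Among the genes that held, Slco2a1 differed by 5.22 at passage 5 and 5.26 at passage 15, Frzb by 4.41 and 4.98, Serping1 by 4.21 and 4.22, Smoc1 (a matrix protein that binds calcium) by 4.71 and 4.45, and Igf2 by 3.46 and 5.59. On the other side Mpped2 differed by -3.43 and -4.35, Alx1 by -1.99 and -2.18, and Mkx by -2.15 and -1.89. Other large differences were smaller there. Glipr1 went from 5.85 to 1.11, Igfbp3 from 4.09 to 0.98, Cyp26b1 from 3.67 to 0.87, Cdo1 from 4.26 to 0.25 and Wnt5a from -2.44 to -0.29. Myocd (-0.09, adjusted p = 0.304), Nr2f2 (0.08) and Epha4 (0.03) were not called. Genes that reversed included Mmp3, from -3.53 to 4.50, Npy4r, a receptor of pancreatic polypeptide, from -3.56 to 3.59, Il13ra1, an interleukin 13 receptor, from -2.65 to 3.04, Stc1, a secreted stanniocalcin, from -3.05 to 1.98, Lama4 from -3.81 to 1.78, and Cd34 from -1.31 to 3.84. The cholesterol list had 16 of 17 lower at passage 5 and 13 of 17 higher at passage 15, and the replication list 12 of 20 lower and then 14 of 20 higher, while mitosis genes were lower in 19 and then 13 of 19 cases. Pdgfra, not called at passage 5, was higher in large colonies at passage 15 by 2.21 (adjusted p = 1.3e-12).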

How the data were processed

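The deposited values are log2 intensities of 28853 probe sets. Per the submitters' processing notes they involve RMA and limma, whose versions and settings are not given in the sources used here. Per the labels total RNA was labelled for Affymetrix whole-transcript arrays. Array medians lay between 5.59 and 5.64. Precision is limited by the number of arrays, 3 per group.

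Probe sets naming 1 gene were kept (21789, of which 21698 were matched to RefSeq GRCm38.p6 by gene identifier), and the brightest was used for each of 19938 genes. limma 3.58.1 (R 4.3.3) was fitted to all 15 arrays, with group means and moderated 2-sided tests, and Benjamini-Hochberg adjustment ran over all genes at 0.05. The fit was tested on simulated data with few genes changed and noise independent between genes. Far more genes were called here and whole chromosomes shifted, so that test cannot vouch for the calls.

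Groups followed the labels. The 69 lists, which held 2060 measured genes, and the members were chosen with earlier results of these data known. Named genes were the 20 largest differences per direction among called genes without overlap between arrays (leaving out predicted genes, microRNAs and unnamed transcripts), up to 5 members per list and direction by smallest adjusted p, genes at opposite ends of the array, and fixed genes (Pdgfra, Pdgfrb, Pecam1, Mki67, Cdkn2a, Xist, Col1a1, Vim, Tcf21, Tbx5, Tbx20 and Gata4). MicroRNA genes, other list members and genes named among those not called were picked after their values were seen. Alternatives covered normalisation, filters, probe sets, variance models, a replicate block and each array left out.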

Additional observations from a re-analysis of the deposited data

How the results depend on the processing

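Under the alternatives fitted, the counts of genes higher and lower in large colonies, of those at least 2-fold apart and of those called again at passage 15 stayed within 1.5 times the values above. Without 1 array at a time, 3116 to 3634 genes were higher and 3128 to 3547 lower, 348 to 374 and 414 to 444 of them at least 2-fold, and 531 to 559 were called again. Between 753 and 767 of the 783 genes were called and at least 2-fold apart in each such fit. With a replicate block 3639 genes were higher and 3559 lower. The same-numbered arrays correlated at -0.0468, -0.277 and 0.0473, and 1 of 6 matched best with its own number. With so few arrays per group, these values cannot show whether the numbers pair cultures or animals. The block changed no count by over 1.5 times. Leaving out genes below the median level gave 279 and 329 genes at least 2-fold higher and lower.

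Of 523 named genes that were called, 36 lost the call under at least 1 of 16 settings. Of the 251 that differed at least 2-fold, 0 lost it where fitted, but only 203 were fitted under every setting, since the filter on dim genes left out the rest. Signs turned for Iigp1 with levels raised to the lower quartile (0.03), and with chromosome medians removed, an alternative added after the data were seen, for Col2a1 (0.04), Dgat1 (0.08), Rarg (0.13), Rgmb (-0.03) and Ryr2 (-0.05); the cause was not tested.

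Chromosome shifts shrank when all placed genes were used, dim ones included, to -0.121 for chromosome 15, -0.123 for 12, -0.057 for 16, -0.062 for 14, -0.046 for 9, 0.082 for 13, 0.077 for 17, 0.034 for 6, 0.031 for 19 and 0.032 for 10. With tertiles in place of the lower quartile and the median, 12 genes were at opposite ends and high in large colonies and 3 in small ones; the cause was not tested.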
